A study of Mus musculus with 22 samples.

Results

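Total-RNA of the prefrontal cortex (PFC) was compared between 4 mice given ethanol with the PARP inhibitor ABT-888 (EtOH + ABT-888_total-RNA) and 3 mice given saline (Control_total-RNA). These 7 libraries, chosen by their treatment and sample type, are part of a series of 22 libraries from 11 mice. The other libraries are 4 of total-RNA from mice given ethanol alone and 11 of RNA bound to tagged ribosomes (TRAP), one from each mouse. All mice were transgenic males of 8 to 12 weeks in a C57BL/6J background that carry tetO-EGFP/Rpl10a together with CaMKIIα-tTA, so that Control and treated mice alike express an EGFP-tagged ribosomal protein in cells that use the CaMKIIα promoter. Control (mice 1, 4 and 7) received normal saline i.p. and EtOH + ABT-888 (mice 3, 6, 10 and 11) received ethanol i.p. at 2 g/kg per day, each in 2 daily injections for 4 days, with ABT-888 at 25 mg/kg added on day 4 alone. EtOH (mice 2, 5, 8 and 9) received the ethanol without the inhibitor. PFC was taken 2 h after the last injection, and total-RNA was set aside from the lysate before the tagged ribosomes were pulled down. It therefore holds the RNA of every cell type of the dissected tissue. No mice received ABT-888 without ethanol, so that effects of the inhibitor and of ethanol cannot be told apart in this comparison.

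Ethanol is known to activate the hypothalamic-pituitary-adrenal axis, and the glucocorticoids that this axis releases cross into the brain, bind the glucocorticoid receptor and induce a set of genes shared by many tissues. PARP enzymes attach ADP-ribose to proteins, chiefly in response to DNA breaks, and loosen chromatin. ABT-888 (veliparib) blocks PARP1 and PARP2, so that DNA repair genes, the PARP family and genes of NAD, from which ADP-ribose is made, are described here beside the stress-responsive ones.

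Between 24019886 and 32421392 reads were counted per library, and the ranges of both groups overlapped. The 3 Control libraries were close to each other, with a mean Pearson's r of log2 CPM of 0.991 to 0.992 across genes, which are not independent replicates. The 4 EtOH + ABT-888 libraries were spread more widely. Mouse 3 had the highest mean r with Control (0.987), above its mean r with the other mice of its own group (0.974). Mouse 10 had the lowest (0.956), and its median absolute log2 difference from the Control mean over all genes was 0.360, against 0.171 in mouse 3, 0.223 in mouse 6 and 0.197 in mouse 11. Mitochondrial transcripts took 5.32% to 6.42% of the counts in Control and 3.81% (mouse 3) to 7.82% (mouse 10) in EtOH + ABT-888. Levels are given below as CPM, counts divided by the library size after TMM scaling and put on a common total, in the order of mice 1, 4 and 7 for Control and mice 3, 6, 10 and 11 for EtOH + ABT-888. The CPM are not divided by gene length, so that they compare libraries and not genes.

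Of 14072 genes tested, 37 (0.263%) had a Benjamini-Hochberg adjusted p-value below 0.05 for EtOH + ABT-888_total-RNA against Control_total-RNA (edgeR, quasi-likelihood test), and "called" here refers to this test. Of them, 25 (0.178%) were higher and 12 (0.0853%) were lower with EtOH + ABT-888. Before adjustment, the p-value was under 0.05 in 2243 genes (15.9%), 1203 higher (8.55%) and 1040 lower (7.39%). The 4 treated libraries lay outside the range of the 3 Control libraries in 1210 genes that were higher (8.60%) and 1174 that were lower (8.34%), and all 37 called genes were among these. The adjusted p-values of the called genes ran from 0.0346 to 0.0491, and the next gene, Vwf, was at 0.0501, so that the threshold cuts through a dense series of genes. All 37 are protein-coding. They were also called by edgeR's exactTest, which called 544 genes (3.87%), and by DESeq2, which called 621 (4.41%).

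**Figure D1:**
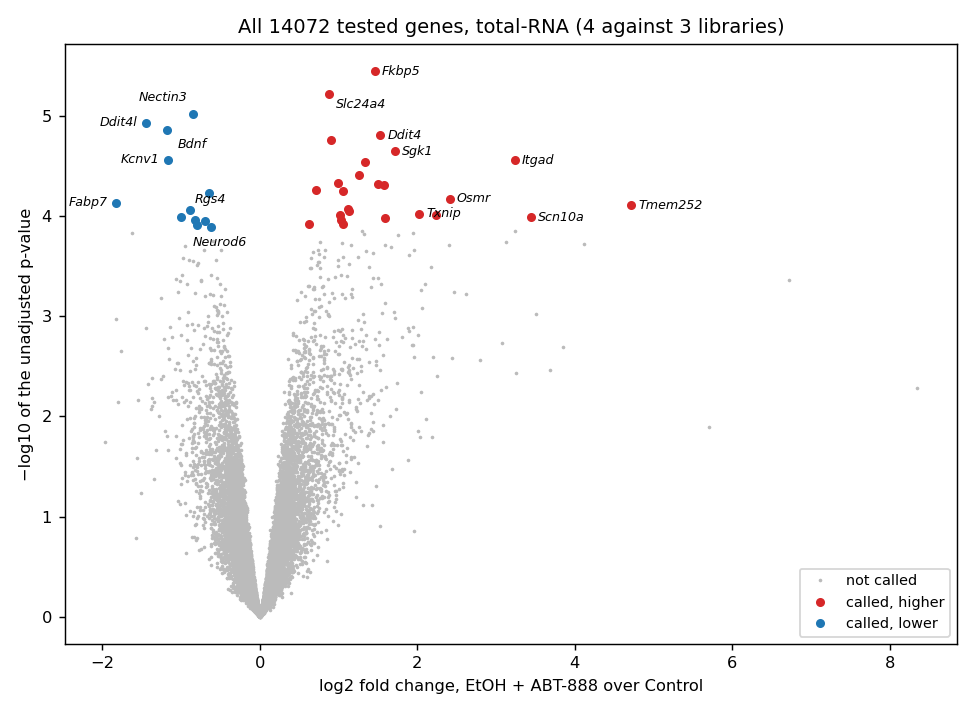
The log2 fold change of each of the 14072 genes (EtOH + ABT-888_total-RNA over Control_total-RNA, x axis) is plotted against the −log10 of its unadjusted p-value from edgeR's quasi-likelihood test (y axis), with the 25 higher calls in red and the 12 lower calls in blue. The calls with the largest fold changes lie on the higher side, with Tmem252, Scn10a and Itgad farthest out, while lower calls reach no further than Fabp7. The filter summed counts over all 22 libraries, most of them from treated mice. Large rises from very low Control levels therefore pass it more readily than large falls to such levels.

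The calls depended on single libraries. With mouse 3 left out 870 genes were called, and with mouse 10 left out 204 were called, each time with all of the 37. With any of the other 5 libraries left out (Control mice 1, 4 and 7, EtOH + ABT-888 mice 6 and 11), edgeR's quasi-likelihood test called 0 genes, with 1368 to 1953 genes at an unadjusted p-value under 0.05. In those 5 fits the largest adjusted p-value of a called gene lay between 0.133 and 0.286, and the direction of each of the 37 was the same in all 7 fits. Each call below carries this limit.

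**Figure D2:**
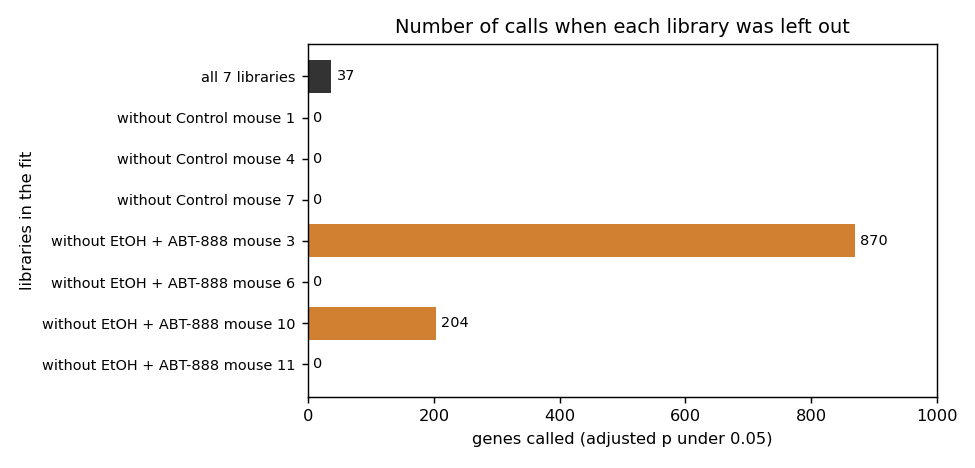
Bars give the number of genes called at an adjusted p-value under 0.05 (x axis, from 0) with all 7 libraries and with each library left out in turn (y axis). The count was 37 with all libraries, rose to 870 without mouse 3 and to 204 without mouse 10, and was 0 in the other 5 fits.

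Genes that glucocorticoids induce were among the genes that rose. Sgk1, the serum- and glucocorticoid-regulated kinase (chromosome 10 from 21882184 to 21999903 in mm10), was at 65.1, 59.5 and 53.6 CPM in Control and at 126, 179, 289 and 188 CPM in EtOH + ABT-888. This is a 3.29-fold rise (log2 fold change 1.72, standard error 0.24, adjusted p-value 0.0363 from edgeR), and the lowest treated library, mouse 3, lay well above the highest Control library. Tsc22d3, which encodes the glucocorticoid-induced leucine zipper protein (chromosome X from 140539528 to 140600659), was at 72.4, 55.8 and 61.4 CPM in Control and at 119, 147, 206 and 133 CPM in EtOH + ABT-888. It rose 2.39-fold (log2 fold change 1.25, standard error 0.19), again with mouse 3 lowest and mouse 10 highest. Ddit4, an inhibitor of the mTORC1 kinase complex that glucocorticoids and low energy both induce (chromosome 10 from 59949669 to 59951834), was at 18.5, 15.6 and 16.2 CPM in Control and at 33.9, 56.3, 61.6 and 42.3 CPM in EtOH + ABT-888, a 2.89-fold rise. Fkbp5, a co-chaperone that dampens the glucocorticoid receptor (chromosome 17 from 28399094 to 28517527), was at 31.3, 27 and 37.4 CPM in Control and at 73.6, 102, 99.9 and 76.3 CPM in EtOH + ABT-888, with the groups clearly apart. Its log2 fold change stayed between 1.35 and 1.59 when each library was left out.

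These 4 genes were the calls of the quasi-likelihood test in a list of 19 glucocorticoid-induced genes, where 0.263% of all genes were called. exactTest called 17 and DESeq2 15 of the 19, against 3.87% and 4.41% of all genes. All 19 members were tested, and 18 were higher at an unadjusted p-value under 0.05 and none lower, where 8.55% of all tested genes were higher. In 16 of the 19 the treated libraries did not overlap Control and were higher, against 8.60% of all genes. The median log2 fold change of the list was 1.43, against 0.00 for all genes tested (1.21 without mouse 10, 1.59 without mouse 3). The list, like the others described here, was chosen with earlier results of these data known, so that its direction is not independent evidence. Map3k6, a kinase of the stress-activated cascades, was just short of a call. It was at 2.46, 2.42 and 1.82 CPM in Control and at 5.08, 13.7, 8.98 and 6.65 CPM in EtOH + ABT-888 (adjusted p-value 0.0501 by edgeR's quasi-likelihood test). Arrdc2, an arrestin-domain protein, was at 4.87, 3.79 and 3.38 CPM in Control and at 7.02, 17.9, 13.3 and 16 CPM in EtOH + ABT-888 (adjusted p-value 0.0504 from edgeR). The mean log2 difference of the list from the Control mean was 0.81 in mouse 3, 1.53 in mouse 6, 1.81 in mouse 10 and 1.19 in mouse 11. Each treated mouse was thus above Control, and mouse 3 least so. Members of this list recur in lists described below (Ddit4, Map3k6, Rasd1, Dusp1, Nfkbia, Cdkn1a and Per1), so that the lists are not separate sets of genes.

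The promoters of called genes are shown for the letters that the glucocorticoid receptor is known to bind. This search was chosen with the rise of glucocorticoid-induced genes known, Sgk1 among them. Whether the receptor acted on the called genes was not tested. The receptor binds as a pair to an inverted repeat, searched here as GNACANNNTGTNC, and to a single arm of it, searched as AGAACA, both on either strand and in the 250 bases before each transcript start that RefSeq gives for GRCm38.p6, the assembly of mm10. Of 25 genes called higher 21 had a promoter in the RefSeq table, and the inverted repeat occurred in 2 of them, Sgk1 and Txnip, in 2 of their 35 promoters (5.71%), against 0.387% of all 32851 promoters and 0.296% of those of tested genes. The single arm occurred in 7 of the 35 promoters (20%), in Sgk1, Itih2, Tsc22d3, Fmo2 and Il1r1, against 16.1% of all promoters and 10.7% of the 13509 promoters of tested genes. Fkbp5 and Ddit4, the other glucocorticoid-induced calls, held neither motif in this window. Of the 12 genes called lower 10 had a promoter, and of their 17 promoters 0 held the inverted repeat and 3, all of Bdnf, held the single arm (17.6%). In the sequences, written in the direction of transcription and ending at the base before the start, capitals mark the letters of either motif.
Sgk1 promoter, chr10:21993640-21993889, plus strand: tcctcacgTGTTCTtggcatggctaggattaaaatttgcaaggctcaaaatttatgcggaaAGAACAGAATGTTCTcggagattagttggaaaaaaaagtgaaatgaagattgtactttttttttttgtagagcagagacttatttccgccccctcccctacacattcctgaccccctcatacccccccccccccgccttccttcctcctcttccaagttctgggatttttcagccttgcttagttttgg
Txnip promoter, chr3:96557707-96557956, plus strand: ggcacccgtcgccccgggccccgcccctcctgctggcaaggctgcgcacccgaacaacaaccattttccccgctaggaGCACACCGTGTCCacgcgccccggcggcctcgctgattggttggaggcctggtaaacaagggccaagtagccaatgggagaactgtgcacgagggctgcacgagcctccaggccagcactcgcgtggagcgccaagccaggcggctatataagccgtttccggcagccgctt
Tsc22d3 promoter, chrX:140600523-140600772, minus strand: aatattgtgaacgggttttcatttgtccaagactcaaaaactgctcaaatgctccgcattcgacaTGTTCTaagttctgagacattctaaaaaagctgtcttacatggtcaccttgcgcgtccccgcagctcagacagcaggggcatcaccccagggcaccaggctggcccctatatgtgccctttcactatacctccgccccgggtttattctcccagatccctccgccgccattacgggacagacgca
Sgk1 has 6 promoters in the table, and the one shown belongs to a transcript that starts inside the gene. In it an inverted repeat overlaps 2 single arms and a heat shock factor motif, and a further arm, read on the other strand, lies upstream. The promoter of Txnip holds an inverted repeat without the single arm, and that of Tsc22d3, 1 of 3, holds a single arm read on the other strand. The repeat in these windows is a description of their letters, and no binding was measured.

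The other motifs searched were those of CREB (TGACGTCA), heat shock factor (GAANNTTC), the E-box (CACGTG) and FoxO (GTAAACA), the last found in 2 of the 35 promoters of genes called higher (5.71%, Txnip and Fmo2), in 3.17% of all promoters and in 2.12% of those of tested genes. Those of CREB, heat shock factor and the E-box were found in 1 (2.86%), 4 (11.4%) and 3 (8.57%) of the 35, against 1.55%, 6.69% and 6.02% of all and 2.56%, 4.82% and 8.19% of those of tested genes.

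Several called genes act on glucose use, growth factor signalling or mTOR. Txnip, which binds thioredoxin and lowers glucose uptake (chromosome 3 from 96557957 to 96561883), was at 16.7, 16.8 and 14.7 CPM in Control and at 28.4, 65.7, 96.9 and 71.1 CPM in EtOH + ABT-888, a 4.07-fold rise (log2 fold change 2.03, standard error 0.33, edgeR's adjusted p-value 0.0470). The groups did not overlap, and mouse 3 was at less than the level of any other treated mouse. Pik3ip1, an inhibitor of PI3 kinase, was at 18.8, 19.7 and 17.8 CPM in Control and at 30.1, 51.9, 37.7 and 43.7 CPM in EtOH + ABT-888, a 2.17-fold rise, but its gene overlaps Gm12592 on the opposite strand and its counts are uncertain. Bmf, a pro-apoptotic member of the Bcl-2 family, was at 2.54, 2.00 and 2.20 CPM in Control and at 4.70, 7.49, 6.45 and 6.90 CPM in EtOH + ABT-888, a 2.84-fold rise. Ddit4l, the close relative of Ddit4 that also inhibits mTORC1 (chromosome 3 from 137621612 to 137628333), fell instead. It was at 23.6, 23.4 and 23.2 CPM in Control and at 11.9, 7.22, 7.82 and 7.44 CPM in EtOH + ABT-888, a 2.72-fold fall (log2 fold change -1.45, standard error 0.19). Of 16 mTOR regulators 4 were higher and 1 lower at an unadjusted p-value under 0.05 (8.55% and 7.39% of all genes), and Ddit4 and Ddit4l were called (0.263% of all genes). exactTest and DESeq2 called 3 and 3 of the 16 (3.87% and 4.41% of all genes). Sesn1, a leucine sensor that restrains mTORC1, was at 62.7, 57.9 and 60.4 CPM in Control and at 76.3, 112, 128 and 103 CPM in EtOH + ABT-888 (adjusted p-value 0.0659 by edgeR's quasi-likelihood test), and the median log2 fold change of the list was 0.04 (0.00 to 0.14 when single libraries were left out, the highest without mouse 10).

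Receptors of cytokines and other extracellular signals were also called. Osmr, the receptor subunit for oncostatin M, a cytokine of the interleukin-6 family (chromosome 15 from 6813577 to 6874969), was at 1.65, 2.28 and 2.42 CPM in Control and at 4.67, 14.8, 14.3 and 11.6 CPM in EtOH + ABT-888, a 5.31-fold rise (log2 fold change 2.41, standard error 0.38, adjusted p-value 0.0470 from edgeR). Il1r1, the signalling receptor of interleukin-1 (chromosome 1 from 40225080 to 40317257), was at 3.94, 4.67 and 4.17 CPM in Control and at 8.85, 8.27, 8.02 and 10.3 CPM in EtOH + ABT-888, a 2.07-fold rise in which the treated mice were close together. Il12rb1, a receptor subunit of interleukin-12, was at 0.508, 0.281 and 0.414 CPM in Control and at 1.14, 2.45, 1.88 and 2.12 CPM in EtOH + ABT-888, so that it rose from a very low level. Itgad, an integrin alpha subunit of leukocytes, was at 0.169, 0.105 and 0.319 CPM in Control and at 1.11, 1.86, 2.70 and 2.09 CPM in EtOH + ABT-888, a 9.41-fold rise that rests on as few as 3 counts in a Control library, and its gene overlaps Cox6a2 and 4931431B13Rik on the opposite strand. Itih2, an inter-alpha-trypsin inhibitor heavy chain that binds hyaluronan, was at 4.53, 4.00 and 5.77 CPM in Control and at 14, 11.8, 10.2 and 12.5 CPM in EtOH + ABT-888, so that here mouse 3 was the highest treated library and mouse 10 the lowest. Tgfbr3, the TGF-beta co-receptor betaglycan, was at 18, 21 and 16.5 CPM in Control and at 32.8, 35, 43.8 and 35.4 CPM in EtOH + ABT-888, and its highest library was mouse 10.

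Il1r1 was the one call of the quasi-likelihood test (0.263% of all genes) in a list of 23 acute phase and interleukin-6 genes. The list was drawn up here after the study had named such pathways from these same libraries, so that its direction is not independent evidence. Of the 21 members tested, exactTest called 11 and DESeq2 10 (3.87% and 4.41% of all genes). By the quasi-likelihood test 15 were higher at an unadjusted p-value under 0.05 and none lower, where 8.55% of all tested genes were higher, and the median log2 fold change was 0.76 (0.69 without mouse 10). Cebpd, a transcription factor of the acute phase, was at 0.890, 1.23 and 0.860 CPM in Control and at 2.63, 8.97, 16.6 and 6.59 CPM in EtOH + ABT-888 (adjusted p-value 0.0523 by edgeR's quasi-likelihood test), and its gene overlaps Spidr on the opposite strand. Socs3, the feedback inhibitor of STAT3 signalling, was at 0.805, 1.12 and 1.05 CPM in Control and at 1.52, 10.4, 6.15 and 6.50 CPM in EtOH + ABT-888 (adjusted p-value 0.0680 from edgeR). Lcn2, the iron-binding protein lipocalin-2 that reactive glia secrete, was at 0.762, 0.316 and 0 CPM in Control and at 0.968, 46.5, 69.6 and 24.2 CPM in EtOH + ABT-888 (adjusted p-value 0.0630 from edgeR). In Lcn2 the treated mice ran from near the Control level in mouse 3 to far above it in the other mice. The list's mean log2 difference from Control was 0.39 in mouse 3, against 1.51, 1.38 and 1.10 in mice 6, 10 and 11.

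Genes of ion transport and an uncharacterized membrane protein also rose. Slc24a4, a potassium-dependent sodium/calcium exchanger (chromosome 12 from 102128733 to 102267091), was at 42.2, 45.1 and 41.4 CPM in Control and at 73.2, 83.6, 80.2 and 79.4 CPM in EtOH + ABT-888, a 1.84-fold rise with little spread. Of 11 tested genes of calcium and sodium exchange it was the one call, also by exactTest and DESeq2 (0.263% of all genes by the quasi-likelihood test), and the median log2 fold change of that list was -0.20 and -0.10 without mouse 10. Scn10a, a voltage-gated sodium channel best known from sensory neurons (chromosome 9 from 119608456 to 119719322), was at 0.805, 0.421 and 1.12 CPM in Control and at 2.18, 11, 11.1 and 9.95 CPM in EtOH + ABT-888, a 10.8-fold rise (log2 fold change 3.44, standard error 0.57). Tmem252, a membrane protein (chromosome 19 from 24674008 to 24682233), was at 0.339, 0.281 and 0.382 CPM in Control and at 1.42, 12.9, 14.4 and 7.02 CPM in EtOH + ABT-888, the largest fold change of the called genes (26.2-fold, log2 fold change 4.71, standard error 0.75), from as few as 8 counts in a Control library. In Scn10a and Tmem252 mouse 3 lay far below the other treated mice and still above Control.

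The remaining genes that rose included regulators of transcription and small GTPases. Zfp189, a zinc finger transcription factor, was at 9.66, 9.58 and 11.4 CPM in Control and at 18, 32.2, 38.5 and 33.5 CPM in EtOH + ABT-888, a 2.98-fold rise. Ets2, a transcription factor downstream of MAP kinases, was at 65.6, 59.9 and 65.8 CPM in Control and at 92.8, 97.6, 108 and 94.6 CPM in EtOH + ABT-888, the smallest rise of the 25 (1.54-fold). Aff1, a scaffold of transcription elongation, rose 2.08-fold and Elmsan1, a subunit of a histone deacetylase complex, 2.19-fold, both most in mouse 10. Rhou, a small GTPase, was at 37.4, 34.7 and 38.6 CPM in Control and at 57.2, 79.9, 95.1 and 66.9 CPM in EtOH + ABT-888, a 2.02-fold rise. Arl4d, an Arf-like GTPase, was at 9.87, 8.95 and 9.37 CPM in Control and at 14.6, 20.4, 22.7 and 19.3 CPM in EtOH + ABT-888. In both the order of the treated mice had mouse 3 lowest and mouse 10 highest. Islr2, a membrane protein of growing axons, rose 1.88-fold, but its gene overlaps 1600029O15Rik on the opposite strand and Islr on the same strand, so that its counts are uncertain. Pdzd2, a PDZ-domain protein, rose 1.63-fold to a mean of 153 ± 14.4 CPM from 93.4 ± 2.81 CPM in Control (mean ± SD, n = 4 and 3). Fmo2, a flavin monooxygenase, was at 1.10, 0.667 and 1.21 CPM in Control and at 2.90, 3.03, 3.07 and 3.05 CPM in EtOH + ABT-888, with 4 treated libraries of nearly the same level.

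The 12 genes that fell included a neurotrophic factor, a receptor subunit, a channel subunit and a regulator of G-protein signalling. Bdnf, the brain-derived neurotrophic factor (chromosome 2 from 109674700 to 109727007), was at 35.3, 39.1 and 42.1 CPM in Control and at 21.3, 14.7, 15.3 and 17.6 CPM in EtOH + ABT-888, a 2.26-fold fall (log2 fold change -1.18, standard error 0.15, adjusted p-value 0.0346 from edgeR), with mouse 3 nearest to Control. Rgs4, which shortens signalling by G-protein-coupled receptors (chromosome 1 from 169741477 to 169747642), was at 790.5, 886 and 816 CPM in Control and at 542, 337, 479.7 and 448 CPM in EtOH + ABT-888, a 1.84-fold fall. Kcnv1, a silent subunit that modifies voltage-gated potassium channels (chromosome 15 from 45106284 to 45114920), was at 171, 170.5 and 194 CPM in Control and at 96.4, 82, 55.6 and 84.6 CPM in EtOH + ABT-888, a 2.24-fold fall that was deepest in mouse 10. Gabra2, an alpha subunit of the GABA-A receptor whose human counterpart has been studied in alcohol dependence (chromosome 5 from 70957597 to 71095849), was at 61.3, 59.9 and 80.6 CPM in Control and at 37.1, 25.5, 34.4 and 38.2 CPM in EtOH + ABT-888, a 1.99-fold fall that was deepest in mouse 6. In each of these genes the groups were apart and no treated mouse reached the lowest Control mouse.

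Nectin3, an immunoglobulin-like adhesion molecule of synaptic and other cell contacts (chromosome 16 from 46387706 to 46498525), was at 51.9, 56.7 and 54 CPM in Control and at 32.2, 29, 29.4 and 30.4 CPM in EtOH + ABT-888, a 1.80-fold fall with little spread in either group. It was the one call among 9 nectins and partners (0.263% of all genes), of which exactTest and DESeq2 called 2 each (3.87% and 4.41% of all genes). Nectin4 lay higher, at 3.35, 2.81 and 2.71 CPM in Control and 5.01, 5.05, 8.67 and 5.02 CPM in EtOH + ABT-888 (adjusted p-value 0.112 by edgeR's quasi-likelihood test). Pcdh20, a protocadherin, was at 31.9, 37.9 and 34.6 CPM in Control and at 18.8, 21.7, 17.1 and 21.5 CPM in EtOH + ABT-888, without overlap. Car10, a carbonic anhydrase-related protein without enzyme activity that binds neurexins, was at 189, 163 and 165 CPM in Control and at 108, 90.2, 117 and 112 CPM in EtOH + ABT-888. Neurod6, a transcription factor of cortical excitatory neurons, was at 97.6, 98.9 and 109 CPM in Control and at 72.7, 49.6, 56.8 and 55.2 CPM in EtOH + ABT-888, a 1.74-fold fall. Rasgef1b, a Ras-family exchange factor, fell 1.57-fold from 131 ± 7.35 CPM to 84 ± 5.52 CPM (mean ± SD, n = 3 and 4). Bmp3, a member of the TGF-beta family, was at 64.3, 59.2 and 70.2 CPM in Control and at 41.9, 42.8, 43.3 and 40 CPM in EtOH + ABT-888, the smallest fall of the 12 (1.54-fold). Fabp7, the fatty acid-binding protein of astrocytes and neural precursors, was at 18.5, 20.5 and 29.5 CPM in Control and at 10.7, 4.62, 5.29 and 5.29 CPM in EtOH + ABT-888, the deepest fall of the 12 (3.53-fold, log2 fold change -1.82, standard error 0.29), with mouse 3 far above the other treated mice.

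Bdnf belonged to a list of 14 neurotrophic and secreted plasticity genes, of which 12 were tested. exactTest and DESeq2 each called 6 of them (3.87% and 4.41% of all genes), and the quasi-likelihood test called Bdnf alone (0.263% of all genes). Of the 12, 6 were lower and 1 higher at an unadjusted p-value under 0.05, where 7.39% of all tested genes were lower, and the median log2 fold change was -0.44 (-0.39 without mouse 10). Nrn1, or neuritin, was at 198, 216 and 204 CPM in Control and at 149, 102, 120.4 and 132 CPM in EtOH + ABT-888 (adjusted p-value 0.0523 by edgeR's quasi-likelihood test), though its gene overlaps Fars2 on the opposite strand. Inhba, a subunit of activin, was at 8.01, 8.67 and 7.14 CPM in Control and at 3.84, 1.59, 0.751 and 2.75 CPM in EtOH + ABT-888 (adjusted p-value 0.0882 from edgeR). Nptx1, neuronal pentraxin 1, was the member on the other side, at 306, 297 and 262 CPM in Control and 389, 408, 392 and 352 CPM in EtOH + ABT-888. The list's mean log2 difference from Control was -0.28, -0.69, -0.82 and -0.58 in mice 3, 6, 10 and 11, below Control in each.

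**Figure D3:**
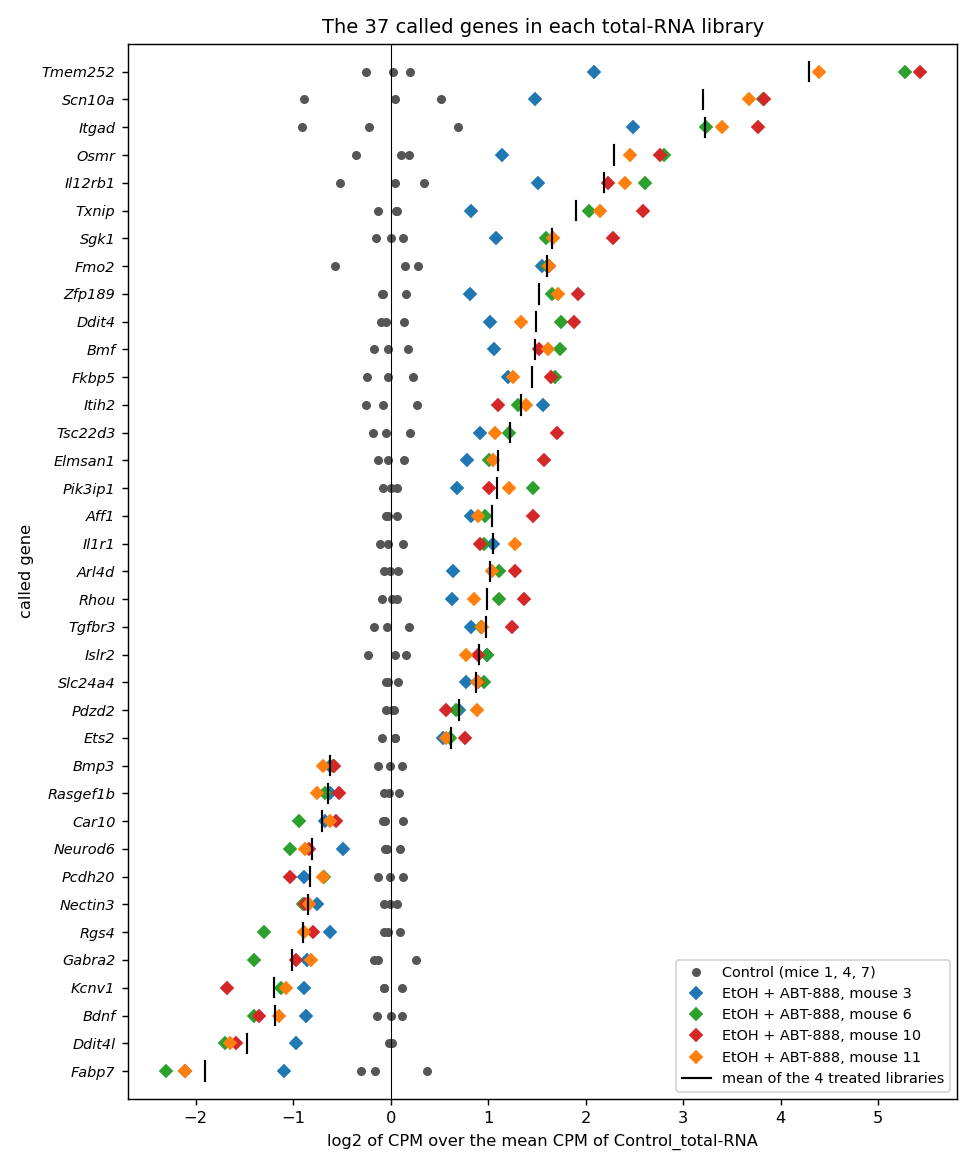
For each of the 37 called genes (y axis) the points give the log2 ratio of the CPM of single libraries to the mean CPM of Control_total-RNA (x axis), with grey circles for the 3 Control mice, coloured diamonds for the 4 EtOH + ABT-888 mice and a bar at the mean of those 4. Diamonds and circles do not overlap in any row. The blue diamond of mouse 3 is the nearest to Control in 28 of the 37 genes and the red diamond of mouse 10 the farthest in 17.

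The 10 genes of each direction with the next smallest p-values whose groups did not overlap had adjusted p-values between 0.0501 and 0.0552 by edgeR's quasi-likelihood test. On the higher side they were Vwf, Angptl4, Map3k6, Smpdl3b, Arrdc2, Cebpd, Mknk2, Pwwp2b, Ch25h and Apold1, with log2 fold changes from 0.76 to 4.12. On the lower side they were Gm18406, C1ql3, Car2, Nrn1, Fbxw7, Gcnt4, R3hdm1, Wdr78, Dio2 and Far2, with log2 fold changes from -1.62 to -0.49. Angptl4, an inhibitor of lipoprotein lipase, was at 0.932, 1.16 and 0.892 CPM in Control and at 2.14, 9.51, 12.6 and 13.4 CPM in EtOH + ABT-888. Apold1, an early response gene of endothelial cells, was at 2.84, 2.39 and 1.98 CPM in Control and at 4.74, 20.5, 15.1 and 10.7 CPM in EtOH + ABT-888. Ch25h, which makes an oxysterol, was at 0.381, 0.105 and 0 CPM in Control and at 1.14, 4.19, 2.25 and 3.02 CPM in EtOH + ABT-888. In each of these 3 genes mouse 3 was the lowest treated library. Dio2, the deiodinase that activates thyroid hormone, was at 139, 145 and 141 CPM in Control and at 96.9, 64.2, 92.5 and 63.8 CPM in EtOH + ABT-888. Car2, a carbonic anhydrase, was at 130.3, 132 and 132 CPM in Control and at 92.1, 51.4, 61.6 and 68.1 CPM in EtOH + ABT-888, below Control in all 4 mice. Cebpd, Ch25h, Nrn1, Wdr78, Dio2 and Far2 overlap a gene on the opposite strand.

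Among the other lists, no member of those for the PARP family, DNA repair, NAD metabolism, ethanol metabolism, the circadian clock, chaperones, immediate early genes, cholesterol synthesis, insulin signalling, MAP kinases and peptide and monoamine receptors was called by the quasi-likelihood test, at a background of 0.263%. exactTest (3.87% of all genes) called 1 member of the PARP, 1 of the DNA repair, 2 of the clock, 5 of the chaperone, 4 of the immediate early, 2 of the cholesterol, 4 of the insulin, 3 of the MAP kinase and 6 of the receptor list. DESeq2 (4.41% of all genes) called 1, 2, 2, 6, 5, 2, 5, 3 and 5 in the same order, and neither tool called a member of the NAD and ethanol lists. The counts at an unadjusted p-value under 0.05 that follow stand against 8.55% of all genes higher and 7.39% lower. Parp1, a target of ABT-888, was at 84.8, 77.4 and 72.5 CPM in Control and at 87.5, 79.6, 34.3 and 62.2 CPM in EtOH + ABT-888 (log2 fold change -0.25, adjusted p-value 0.662 by edgeR's quasi-likelihood test), with mouse 10 far below and mouse 3 above the Control range. Its log2 fold change was -0.04 without mouse 10 and -0.41 without mouse 3. Parp2, the other target, was at 14.4, 13 and 14.4 CPM in Control and at 12, 12.7, 7.00 and 11 CPM in EtOH + ABT-888. Parp3, whose gene overlaps Rrp9 on the opposite strand, was at 3.43, 2.60 and 2.84 CPM in Control and at 3.08, 6.02, 3.89 and 4.75 CPM in EtOH + ABT-888. The groups overlapped in Parp1 and Parp3 and did not in Parp2, which was not called (adjusted p-value 0.378 from edgeR). Of 19 tested genes for PARP enzymes and ADP-ribose removal, 4 were higher and 1, Parp8, lower at an unadjusted p-value under 0.05, and the median log2 fold change was -0.01 (-0.06 to 0.07 when single libraries were left out). Parp8 was at 19.7, 19.4 and 19.3 CPM in Control and at 14.5, 14.1, 13.3 and 13.6 CPM in EtOH + ABT-888, with little spread in either group. Tiparp, a PARP that the aryl hydrocarbon receptor induces, was at 15, 12.8 and 16.3 CPM in Control and at 18.6, 18.6, 42 and 22.4 CPM in EtOH + ABT-888, with mouse 10 high, and its gene overlaps 4931440P22Rik on the opposite strand. Of 23 DNA repair and damage response genes 6 were higher and none lower at that threshold, and the median was 0.14. One of them, the cell cycle inhibitor Cdkn1a, is also on the glucocorticoid list and was at 14.2, 16.8 and 14.4 CPM in Control and at 22.9, 41.2, 106 and 41.1 CPM in EtOH + ABT-888. Of 14 sirtuin and NAD genes 1 was higher (median 0.11), and of 9 genes of ethanol and acetaldehyde metabolism none reached an unadjusted p-value of 0.05 in edgeR's test (median 0.10, and 0.06 to 0.13 when single libraries were left out).

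Of 17 cholesterol synthesis genes, 8 were lower and none higher at an unadjusted p-value under 0.05, against 7.39% of all genes lower, with a median log2 fold change of -0.33. Hmgcs1, an early enzyme of the pathway, was at 307, 340.2 and 330.3 CPM in Control and at 251, 180.3, 223 and 239 CPM in EtOH + ABT-888, below Control in all 4 treated mice. Of 19 clock genes 8 were higher, against 8.55% of all genes, and none lower (median 0.30, and 0.17 without mouse 10). Tef, a PAR bZIP factor, was at 213, 221 and 213 CPM in Control and at 312, 413, 484 and 326 CPM in EtOH + ABT-888, but it overlaps Gm17597 on the opposite strand. Per1, which glucocorticoids also induce, was at 42.3, 38 and 31.5 CPM in Control and at 64.4, 60.7, 231 and 47.5 CPM in EtOH + ABT-888, with mouse 10 far above the rest. Of 23 heat shock and cold-inducible genes 9 were lower and 5 higher, against 7.39% and 8.55% of all genes (median -0.23, and -0.13 without mouse 6). The co-chaperone Stip1 was at 202, 191 and 207 CPM in Control and at 173, 137, 141 and 139.7 CPM in EtOH + ABT-888, below Control in all 4 mice. Rbm3, an RNA-binding protein induced by cold, was at 46.2, 33.1 and 29.6 CPM in Control and at 44.7, 77.9, 98.6 and 80.9 CPM in EtOH + ABT-888. Immediate early genes split evenly, 5 higher and 5 lower of 19. Jun was at 45.7, 44.4 and 48.5 CPM in Control and at 79, 83.9, 65.9 and 66.3 CPM in EtOH + ABT-888. Homer1, here in the transcripts of all its forms together, was at 374, 428 and 472 CPM in Control and at 343, 241, 319.6 and 308 CPM in EtOH + ABT-888. The mean log2 difference of that list from Control was 0.56 in mouse 3 and -0.44, -0.49 and -0.58 in mice 6, 10 and 11. Its median log2 fold change was -0.23, and it turned to 0.06 without mouse 10, so that no direction is given for it.

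The insulin receptor to FoxO list was drawn up here after the study had named insulin receptor signalling from TRAP libraries of the same mice. It is therefore not independent evidence. It had 5 members higher and 1 lower of 27 at an unadjusted p-value under 0.05 (8.55% and 7.39% of all genes) and a median of 0.18. Rasd1, a Ras-family GTPase first found as dexamethasone-induced, was at 2.71, 1.16 and 2.77 CPM in Control and at 4.29, 13.6, 10.9 and 7.86 CPM in EtOH + ABT-888 (adjusted p-value 0.0664 by edgeR's quasi-likelihood test). Irs2, an insulin receptor substrate, was at 74.9, 71.2 and 66 CPM in Control and at 108, 119, 145 and 89.5 CPM in EtOH + ABT-888 (adjusted p-value 0.0824 from edgeR), though its gene overlaps 9530052E02Rik on the opposite strand. Irs4, another substrate, was at 0.0424, 0.421 and 0.924 CPM in Control and at 0.553, 0.970, 0.922 and 0.665 CPM in EtOH + ABT-888, where the groups overlapped. Scnn1a, a subunit of the epithelial sodium channel, was at 4.74, 3.16 and 3.22 CPM in Control and at 1.90, 4.04, 5.26 and 3.45 CPM in EtOH + ABT-888. Stxbp4, a syntaxin-binding protein of insulin-stimulated glucose uptake, was at 38.3, 31.4 and 33.3 CPM in Control and at 37.2, 39.9, 25.2 and 34.5 CPM in EtOH + ABT-888, and the groups overlapped in both. Mapk11, the beta form of the p38 kinases, was at 29, 28.9 and 29.7 CPM in Control and at 26.3, 12.1, 7.41 and 13.1 CPM in EtOH + ABT-888 (adjusted p-value 0.192 from edgeR), with mouse 3 near Control and the other 3 mice far below. In the list of MAP kinases and phosphatases, 6 of 22 were higher and 2 lower, against 8.55% and 7.39% of all genes (median 0.02, and -0.03 to 0.05 when single libraries were left out). Of the higher ones, Map3k6, Rasd1 and Dusp1 are also on the glucocorticoid list. Of 28 peptide and monoamine receptors and ligands, 4 were higher and 6 lower, against 8.55% and 7.39% of all genes (median -0.07, and -0.17 to -0.01 when single libraries were left out). Adcyap1, the peptide PACAP, was at 14.5, 13.3 and 13.1 CPM in Control and at 9.30, 8.11, 7.31 and 7.92 CPM in EtOH + ABT-888. Its receptor Adcyap1r1 was at 122, 130.1 and 118 CPM in Control and at 163, 154, 163 and 156 CPM in EtOH + ABT-888, on the opposite side of Control. Of the opioid receptors, Oprk1 was at 12.2, 18.6 and 19.9 CPM in Control and at 34.1, 26.7, 30.5 and 29.7 CPM in EtOH + ABT-888. Oprl1, the nociceptin receptor, was at 31.6, 29.3 and 32.1 CPM in Control and at 41.5, 57.1, 56.5 and 45.6 CPM in EtOH + ABT-888. In each of these 4 genes, the members with the smallest p-values, the groups did not overlap, and none was called by the quasi-likelihood test. Of all 28 members, 3 were higher and 5 lower without overlap, against 8.60% and 8.34% of all genes.

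**Figure D4:**
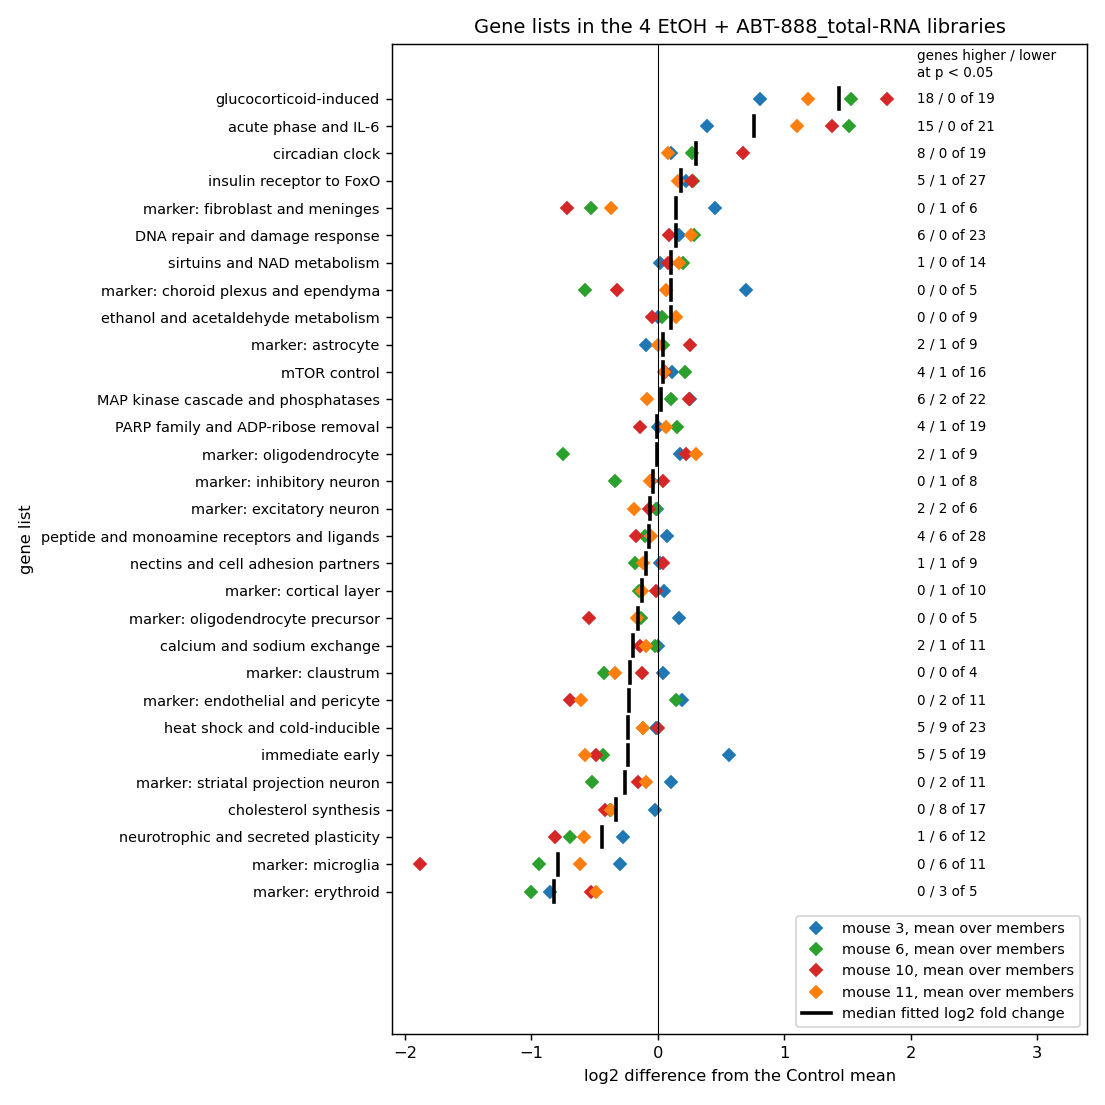
For each of 30 gene lists (y axis), diamonds give the mean log2 difference of its members from the Control mean in each EtOH + ABT-888 mouse, and the black bar gives the median fitted log2 fold change (x axis). The numbers at the right count members higher and lower at an unadjusted p-value under 0.05 among those tested. The glucocorticoid-induced list stands highest, with all 4 mice above 0.80, and the microglia markers are widest, from −0.30 in mouse 3 to −1.88 in mouse 10.

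The 11 microglia markers summed to 419 to 434 CPM in Control and 183 to 351 CPM in EtOH + ABT-888, without overlap, and 6 of the 11 were lower at an unadjusted p-value under 0.05 and none higher, where 7.39% of all tested genes were lower. P2ry12, a receptor of resting microglia, was at 46.8, 48.9 and 49 CPM in Control and at 25.7, 6.75, 5.53 and 18.9 CPM in EtOH + ABT-888, and its gene overlaps Med12l on the opposite strand. P2ry13 was at 12.8, 12.1 and 14.8 CPM in Control and at 7.85, 6.44, 1.43 and 6.14 CPM in EtOH + ABT-888. The log2 fold changes of the complement genes C1qa, C1qb and C1qc, at -0.07, -0.05 and -0.19, were the smallest of the 11, and these genes are named after their values were seen. The quasi-likelihood test called none of the microglia markers, and exactTest and DESeq2 called 1 each (3.87% and 4.41% of all genes). Their median log2 fold change was -0.79 (-0.49 without mouse 10). With EtOH alone it was -1.53 against the same Control libraries, with sums of 180 to 273 CPM. In TRAP the median for EtOH + ABT-888 against Control was 0.26. In total-RNA of a tissue, fewer cells of a type and less RNA per cell cannot be told apart. The calls of immune receptors (Itgad, Il12rb1 and Il1r1) lay on the higher side while these markers lay on the lower side, and the part of cell composition in the calls was not tested. Itgad and Il12rb1 were very low in Control. The filter summed counts over treated and Control libraries, which favours the higher side for such genes, so that their side is not independent evidence.

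The 5 erythroid markers summed to 62.9 to 117 CPM in Control and 47.1 to 75.1 CPM in EtOH + ABT-888, and 3 of the 5 were lower at an unadjusted p-value under 0.05. None passed the quasi-likelihood test after adjustment, and exactTest and DESeq2 called 3 each, where 7.39% of all genes were lower at the unadjusted threshold and exactTest and DESeq2 called 3.87% and 4.41% of all genes. Markers of astrocytes summed to 7293 to 8147 CPM in Control and 7019.5 to 8582 CPM in EtOH + ABT-888, beside which the fall of Fabp7 is set. Those of oligodendrocytes summed to 2513 to 2788 CPM in Control and 1737 to 3446 CPM in EtOH + ABT-888, where mouse 6 was the lowest library. The 6 excitatory neuron markers, which check the tissue label, were all detected in every library and summed to 3103 to 3774 CPM in Control and 3533 to 4231 CPM in EtOH + ABT-888. Of these, Neurod6 fell while Neurod2 was at 64.2, 61.9 and 52.5 CPM in Control and 73.3, 97.4, 105 and 81 CPM in EtOH + ABT-888, and the median log2 fold change of the list was -0.06 (-0.12 to -0.01 when single libraries were left out). Endothelial and pericyte markers summed to 163 to 192 CPM in Control and 129 to 188 CPM in EtOH + ABT-888 with a mean log2 difference of 0.19, 0.15, -0.69 and -0.61 in mice 3, 6, 10 and 11. Their median log2 fold change was -0.23, and 0.00324 without mouse 10. Those of striatal projection neurons, which neighbouring tissue can bring, summed to 1282 to 1536 CPM in Control and 1021 to 1487 CPM in EtOH + ABT-888, and those of choroid plexus and ependyma to 15.1 to 125 CPM in Control and 18 to 54.7 CPM in EtOH + ABT-888, overlapping in both. The lists for inhibitory neurons, oligodendrocyte precursors, cortical layers, claustrum and meninges had 0 or 1 member at an unadjusted p-value under 0.05 in edgeR's test, and medians between -0.22 and 0.14. Medians of meninges, inhibitory neurons and oligodendrocyte precursors changed sign when single libraries were left out. For meninges the mean log2 difference was 0.45 in mouse 3 but -0.53, -0.72 and -0.37 in mice 6, 10 and 11.

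EtOH_total-RNA gives the levels under ethanol alone, and its comparison with Control used the same 3 Control libraries. That comparison called 2482 genes (17.6%, edgeR, Benjamini-Hochberg adjusted). Because the controls are shared, the fold changes of the called genes are set side by side and no overlap is drawn from them. For Sgk1 the log2 fold change from Control was 1.72 with EtOH + ABT-888 and 1.88 with EtOH, for Txnip 2.03 and 1.84, for Osmr 2.41 and 2.74, for Kcnv1 -1.17 and -1.06, and for Fabp7 -1.82 and -2.0. Tmem252 was at 8.24, 5.5, 2.01 and 2.95 CPM in the 4 EtOH mice (2, 5, 8 and 9), within the range of the EtOH + ABT-888 mice. Set directly against EtOH_total-RNA, EtOH + ABT-888_total-RNA gave calls in 0 of 14072 genes (0%, edgeR's quasi-likelihood test), with 269 genes (1.91%) at an unadjusted p-value under 0.05, and exactTest and DESeq2 each called the same 2 genes, Baiap3 and Htr2c, which are named after their values were seen. Baiap3, a protein of vesicle release, was at 4.91, 4.97, 2.83 and 4.72 CPM with EtOH + ABT-888 and at 14, 9.11, 6.91 and 16.1 CPM with EtOH, and Control was at 2.67, 3.02 and 8.73 CPM. Htr2c, a serotonin receptor, was at 46.7, 37.6, 48.6 and 46.2 CPM with EtOH + ABT-888 and at 77.5, 73, 63.1 and 73.8 CPM with EtOH, and Control was at 35.9, 37.9 and 51.8 CPM. In both genes the EtOH + ABT-888 mice lay below the EtOH mice without overlap and overlapped Control. For the 37 called genes, the difference between the treatments was at most 0.91 on the log2 scale in either direction. It was 0.91 for Tmem252 (standard error 0.57), -0.37 for Pdzd2 (standard error 0.15), -0.28 for Fkbp5 (standard error 0.13), -0.27 for Ets2 (standard error 0.12) and -0.17 for Sgk1 (standard error 0.21), and a p-value that misses the threshold does not show that the treatments act alike. Of the 37, Pdzd2, Fkbp5 and Ets2 were at an unadjusted p-value under 0.05 in edgeR's direct test, against 1.91% of all genes. In 23 of the 37 the fitted level with EtOH + ABT-888 was nearer to Control than that with EtOH and in 14 it was farther, a description only, since the same EtOH + ABT-888 libraries chose the genes.

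**Figure D5:**
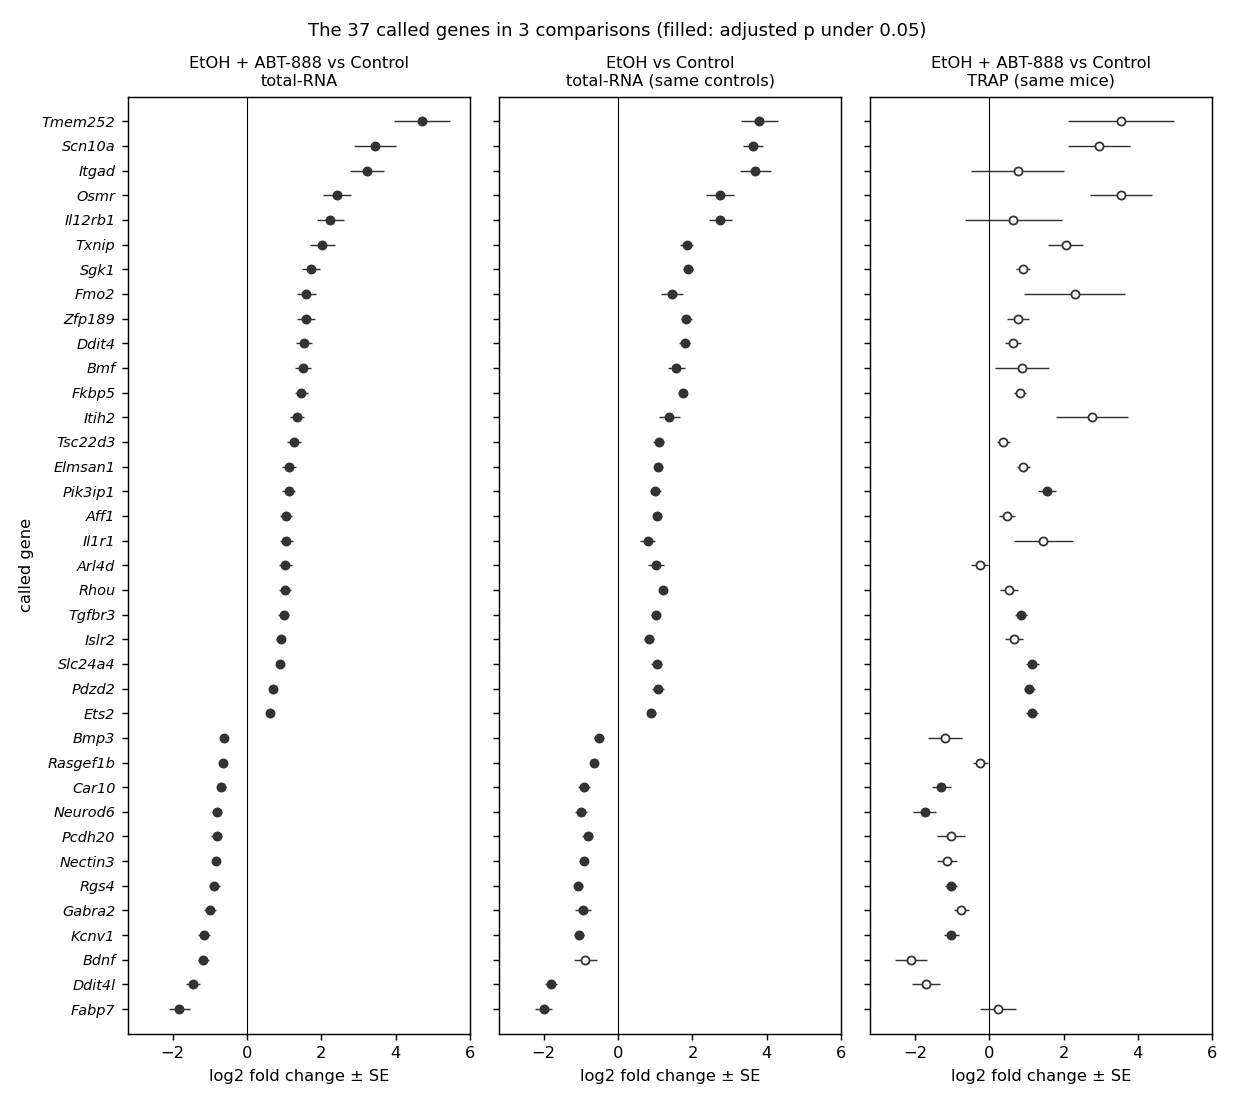
The log2 fold change and its standard error (x axis) of each of the 37 called genes (y axis) are set side by side for EtOH + ABT-888 and EtOH against the same Control_total-RNA libraries and for EtOH + ABT-888_TRAP against Control_TRAP, with filled points where the adjusted p-value was under 0.05. The genes were chosen for the left panel. In the TRAP panel Arl4d and Fabp7 lie on the other side of 0.

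The same 7 mice also gave TRAP libraries, which hold RNA on the ribosomes of CaMKIIα-expressing cells and were normalized separately. There, EtOH + ABT-888 differed from Control in 67 genes (0.476%, edgeR, Benjamini-Hochberg adjusted), with 1696 (12.1%) at an unadjusted p-value under 0.05. For the glucocorticoid-induced calls the log2 fold change in TRAP was 0.90 for Sgk1, 0.65 for Ddit4, 0.83 for Fkbp5 and 0.38 for Tsc22d3, against 1.72, 1.53, 1.46 and 1.25 in total-RNA. For the 12 genes called lower, the value in TRAP was below that in total-RNA in Bdnf (-2.1 against -1.18), Neurod6 (-1.73 against -0.80), Ddit4l (-1.69 against -1.45), Car10 (-1.29 against -0.69), Bmp3 (-1.19 against -0.62), Nectin3 (-1.13 against -0.84), Rgs4 (-1.03 against -0.88) and Pcdh20 (-1.03 against -0.82) and above it in Kcnv1 (-1.02 against -1.17), Gabra2 (-0.75 against -1.0), Rasgef1b (-0.24 against -0.65) and Fabp7 (0.23 against -1.82). Arl4d, called higher, was at -0.26 in TRAP. Whether these changes differ between the sample types was tested as an interaction over the 14 libraries. It called 1 gene (0.00711%), which was none of the 37, without and with the mouse as a block, and 546 and 1173 genes reached an unadjusted p-value under 0.05, so that the differences named here did not pass. The gene was Gm11549 (chromosome 3 from 36515057 to 36521813), which was at 19.6, 19.6 and 23.6 CPM in Control_TRAP and at 9.55, 8.94, 9.59 and 8.55 CPM in EtOH + ABT-888_TRAP, while in total-RNA it was at 40.1, 34.8 and 38.5 CPM in Control and at 38.9, 49.5, 46.8 and 52.8 CPM in EtOH + ABT-888. Its log2 fold change was -1.19 in TRAP and 0.31 in total-RNA, an interaction of -1.51 with a standard error of 0.21 (edgeR's adjusted p-value 0.0233, and 0.0487 with the block).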

How the data were processed

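Total-RNA and TRAP libraries of mouse PFC were sequenced by the authors as paired reads of 50 bases after ribosomal RNA depletion. The deposited values are raw counts per gene, which the authors made with STAR on mm10 and featureCounts with ENSEMBL genes. Versions, strand setting and the treatment of multi-mapping reads were not given in the sources used here. Of 39056 genes in the table, 38872 were found in GENCODE M21, which gave coordinates and overlaps.

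Genes with at least 500 counts over all 22 libraries and detected in at least 3 of them were tested (14072 kept, 24984 removed). Most of these libraries are from treated mice, so that genes very low in Control pass more readily when they rise. The 4 EtOH + ABT-888 and 3 Control total-RNA libraries were compared with edgeR 4.0.16 (R 4.3.3) by the quasi-likelihood test with TMM factors and Benjamini-Hochberg adjustment over all genes tested, at a threshold of 0.05. CPM were computed with TMM factors over the 11 total-RNA libraries, and over the TRAP libraries separately. Standard errors were derived as the absolute log2 fold change divided by the square root of the F statistic of the quasi-likelihood test. Mean list differences per mouse used log2(CPM + 0.1). The scripts were tested on simulated data. Libraries within a group differed by more than sampling noise (chi-square per degree of freedom of at least 10.1), so that each counted as 1 sample, and each is a separate mouse.

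The gene lists and the genes described were chosen with earlier results of these data known. Named genes are the called genes, the next 10 in each direction without overlap, up to 4 members of each list by p-value, and genes that the study followed up, except for a gene that is not reported here. The TRAP and total-RNA library of a mouse come from 1 lysate. The sample labels name no mouse, so that libraries were matched by their order in the series and the mouse numbers are inferred. The deviations of the pairs matched in this way from their group means were correlated (r of 0.104 to 0.630 over genes, mean 0.269). The inferred mouse also served as a block in the interaction test. Alternatives were exactTest, DESeq2 1.42.0, RLE factors, other filters, wider fits, a stricter threshold, a likelihood ratio test and leaving out each library. A newer and a robust form of the quasi-likelihood fit were added after seeing the data.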

Additional observations from a re-analysis of the deposited data

Results flagged for a closer look

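In groups of 4 libraries, a library was singled out when its gap to the nearest other one, divided by the range of the group, exceeded Dixon's critical value at the 95% level. Chance alone singles out about 1 in 20 groups, and 16 of 205 groups of named genes were singled out. In EtOH + ABT-888_total-RNA the library was either that of mouse 3 or that of mouse 10. Mouse 3 stood apart from the other 3 treated mice in Ddit4l 11.9 CPM (others 7.22 to 7.82), Fabp7 10.7 CPM (others 4.62 to 5.29), Scn10a 2.18 CPM (others 9.95 to 11.1), R3hdm1 251 CPM (others 201 to 204), Stip1 173 CPM (others 137 to 141), Pik3r1 418 CPM (others 511 to 523), Atp2b4 421 CPM (others 310.0 to 316), Col1a1 9.02 CPM (others 1.60 to 2.56) and Col1a2 19.8 CPM (others 9.49 to 11.1). Mouse 10 stood apart in Bhlhe41 71.6 CPM (others 46.9 to 50.8), Per1 231 CPM (others 47.5 to 64.4), Tiparp 42 CPM (others 18.6 to 22.4), Nectin4 8.67 CPM (others 5.01 to 5.05) and Sox9 49.5 CPM (others 31.8 to 33). In EtOH_total-RNA the singled-out values were Sgk1 268 CPM (the other 3 close together and lower) in mouse 5 and Itih2 20.4 CPM (others 8.96 to 10.9) in mouse 2.

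The effect of EtOH + ABT-888 differed between TRAP and total-RNA in Gm11549, with an interaction of -1.51 on the log2 scale (adjusted p-value 0.0233 after Benjamini-Hochberg adjustment, edgeR). Its level was lower in all 4 treated mice than in all 3 Control mice in TRAP, and it was not called in total-RNA. The call was lost in 5 of 7 fits that each left out one mouse.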

How the results depend on the processing

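The number of genes called against Control varied widely with the test and the filter. In place of 37, exactTest called 544 (232 at an adjusted p-value under 0.01) and DESeq2 621 (289 at that threshold), leaving out the filter gave 544 (of 27374 genes tested), filterByExpr 70 (of 16719), a fit over the 11 total-RNA libraries 135, the newer quasi-likelihood form 19, and a threshold of 0.01 in edgeR's quasi-likelihood test 0. RLE factors gave 41, the robust form 32, and a fit over all 22 libraries 32, of which 17 were among the 37. Leaving out each library in turn gave 0 to 870 calls. The direct comparison with EtOH gave 2 calls by exactTest and 2 by DESeq2, and 0 to 0 in the 8 fits that left out a library, with 171 to 1274 genes at an unadjusted p-value under 0.05, the most without mouse 10. For the interaction, the replicate block, which pairs libraries by the inferred mouse numbers, gave 1 call, the same gene, and the likelihood ratio test gave 13. Leaving out each mouse gave 0 to 4, with 326 to 603 genes at an unadjusted p-value under 0.05 in the 5 fits without a call. The block changed no call. Among named genes, Stxbp4 (-0.01 on the log2 scale) was at 0.000498 without the filter and 0.00141 with filterByExpr, and ran from -0.0900 to 0.111 when libraries were left out. Scnn1a (-0.02) ran from -0.243 to 0.198. The cause of these shifts was not tested. Some called genes, Itgad and Tmem252 among them, rest on a few counts in Control, and the effect of depth on the calls was not tested.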
